A study of Mus musculus with 12 samples.

Results

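The 8 genes described here, Rxrg, Igsf8, Kcnj9, Kcnj10, Dusp23, Ackr1, Cadm3 and Aim2, lie on distal mouse chromosome 1 and were read in the striatum of mice that carry a control or an expanded Huntington's disease allele, with or without the glutamate receptor mGluR5. They were taken from the array as the probe sets whose single platform gene symbol is one of these names, which gave 1 probe set for each of the 8 genes among 19938 genes with a single symbol. The names were picked with earlier results of these arrays known, above all the lower signal of Ackr1 in mice with the expanded allele. The differences between the 2 alleles are therefore given for these 8 genes as a description. Where an adjusted p or a threshold is named for them, it describes the difference beside its spread and is no test. The effect of mGluR5 loss and the interaction are tested, on the assumption that they did not choose the genes. Which comparison chose them is not stated.

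The striatum came from male mice at 90 days of age. All mice were homozygous for a knock-in allele of Htt, the huntingtin gene, so that the controls carry an engineered allele too: Q20 mice (HdhQ20/Q20) have the short glutamine-coding repeat and Q111 mice (HdhQ111/Q111) the expanded one. Each allele was combined with an intact mGluR5 gene (mGluR5+/+) or its knockout (mGluR5-/-), which gave 4 groups of 3 arrays, Q20 with mGluR5, Q20 without mGluR5, Q111 with mGluR5 and Q111 without mGluR5. The labels give one mixed background for all groups, written as 129 * CD-1 * C57BL/6 * FV. Nothing in them says that the replicates were different animals. The p-values below thus rest on the spread among these 12 arrays, and that spread may be technical. Htt lies on chromosome 5 and Grm5, which encodes mGluR5, on chromosome 7, so neither targeted gene is on the chromosome of the 8 genes.

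Distal chromosome 1 of the mouse is known as a stretch dense in genes whose brain expression differs between inbred strains. In a mixed background such strain alleles can come to differ between lines, and here they cannot be told apart from an effect of the Htt allele. The 8 genes do different work. Ackr1 binds inflammatory chemokines without signalling through G proteins and is known from venules and red cells. Aim2 senses cytosolic DNA and starts an inflammasome. Rxrg is a retinoid X receptor enriched in striatal projection neurons. Cadm3 and Igsf8 are immunoglobulin superfamily proteins of the cell surface, the first a neuronal adhesion molecule and the second a partner of tetraspanins. Kcnj9 and Kcnj10 encode inward rectifier potassium channel subunits, a G protein-gated neuronal subunit and the main glial one, and Dusp23 is a small dual-specificity phosphatase.

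Values are log2 signals from whole-transcript arrays, on which 1 unit is a doubling. Array medians lay between 7.05 and 7.16, and precision is limited by having 3 arrays a group. The interquartile range of an array ran from 2.56 to 2.95, and replicate 2 had the widest in each of the 4 groups. All 8 genes lay above the 25th percentile of the array on all 12 arrays, the level used to filter weak genes. The mGluR5 labels were checked on the targeted gene: Grm5 fell by 0.91 ± 0.07 (SE) log2 units with mGluR5 loss (limma adjusted p = 5.81e-06), and all 6 knockout arrays lay below the 6 others. For the allele labels there was no such check. Htt differed by -0.15 ± 0.06 (SE, limma adjusted p = 0.344), with the Q111 arrays lower by a gap of 0.02. The tissue was checked on 8 measured markers of striatal projection neurons, among them Drd1, Drd2 and Ppp1r1b, and all 8 lay above the 75th percentile of every array. None of 3 cortical and none of 4 choroid plexus markers did so. The choroid plexus marker Ttr ran from 6.47 to 9.28 in Q20 and from 6.30 to 7.65 in Q111 arrays, a difference of -0.96 ± 0.37 (SE, limma adjusted p = 0.323), and its part in the allele differences was not tested.

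Ackr1 (Entrez 13349) was lower in every Q111 array. Its signals were 7.93, 7.85 and 7.96 in Q20 mice with mGluR5 and 7.94, 8.04 and 7.88 in Q20 mice without it. They were 6.82, 6.93 and 6.69 in Q111 mice with mGluR5 and 6.67, 6.99 and 6.86 in Q111 mice without it. The arrays fell into a high and a low set that followed the Htt allele alone, with an empty stretch of 0.86 between them, while the arrays of a single allele spanned 0.19 (Q20) and 0.32 (Q111). Averaged over mGluR5 genotypes, the signal in Q111 mice was 1.11 ± 0.07 (SE) log2 units below that in Q20 mice, which is 2.15-fold. In order of level the group means were 7.95 ± 0.08 (SD, n = 3) in Q20 without mGluR5, 7.91 ± 0.06 in Q20 with it, 6.84 ± 0.16 in Q111 without it and 6.81 ± 0.12 in Q111 with it. Within either allele the neighbours in that order differed by less than their spread.

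**Figure D1:**
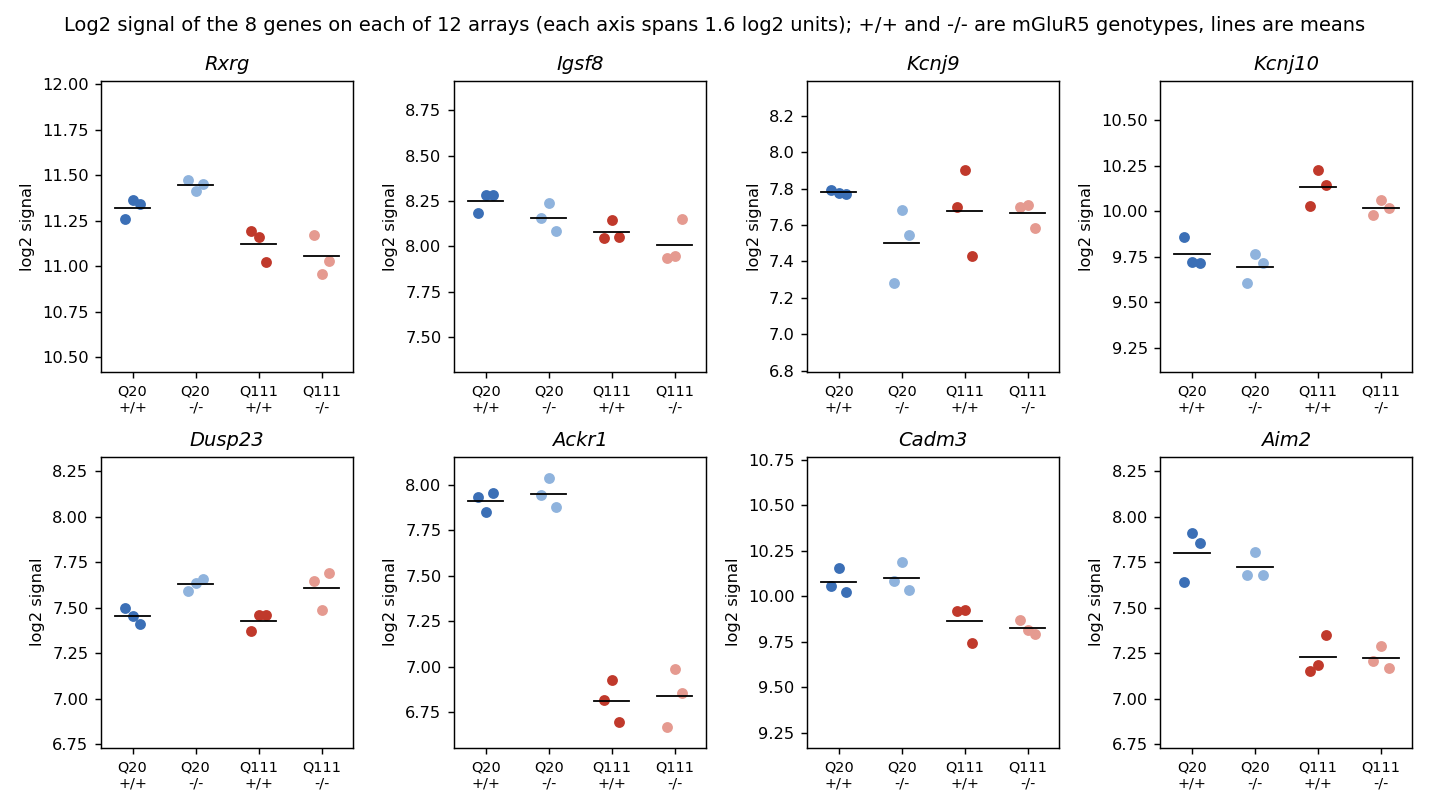
Log2 signal of each of the 8 genes (vertical axes, 1.6 log2 units each) on the 12 arrays, grouped by Htt allele and mGluR5 genotype; points are arrays and lines are group means. The 6 Q20 and 6 Q111 arrays are separated for Ackr1, Aim2, Kcnj10, Cadm3 and Rxrg, in Kcnj10 with the Q111 arrays on top, and overlap for Igsf8, Kcnj9 and Dusp23.

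The promoter windows of the 3 adjacent genes Ackr1, Cadm3 and Aim2, which were all lower in Q111 mice, and of Kcnj10, which was higher, are shown because they differ in make-up. All 8 genes matched RefSeq's promoter table (GRCm38.p6), with 9 windows of 300 bases that reach from 250 bases before to 50 bases after an annotated start. The windows are chr1:173333454-173333753 on the minus strand, chr1:173367646-173367945 on the minus strand, chr1:173420354-173420653 on the plus strand and chr1:172340960-172341259 on the plus strand. They are reference sequence, not that of these mice, written 5′ to 3′, and capitals mark the matches to 4 motifs searched on both strands: the GATA box AGATAAG, the GC box GGGCGG, the TATA box TATAAA and an interferon element, GAAA followed by any 2 bases and a second GAAA.
Ackr1: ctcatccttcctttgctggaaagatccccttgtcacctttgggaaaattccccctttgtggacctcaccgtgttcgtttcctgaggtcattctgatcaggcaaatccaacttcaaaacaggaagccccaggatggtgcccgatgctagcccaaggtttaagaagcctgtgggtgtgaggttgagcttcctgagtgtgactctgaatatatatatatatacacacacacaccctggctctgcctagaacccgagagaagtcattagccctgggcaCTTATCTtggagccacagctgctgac
Cadm3: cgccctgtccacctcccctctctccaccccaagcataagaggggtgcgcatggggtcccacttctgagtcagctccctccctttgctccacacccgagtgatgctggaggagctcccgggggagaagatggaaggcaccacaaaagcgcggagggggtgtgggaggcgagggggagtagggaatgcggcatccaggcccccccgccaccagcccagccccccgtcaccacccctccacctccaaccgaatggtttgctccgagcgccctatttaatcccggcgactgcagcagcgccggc
Aim2: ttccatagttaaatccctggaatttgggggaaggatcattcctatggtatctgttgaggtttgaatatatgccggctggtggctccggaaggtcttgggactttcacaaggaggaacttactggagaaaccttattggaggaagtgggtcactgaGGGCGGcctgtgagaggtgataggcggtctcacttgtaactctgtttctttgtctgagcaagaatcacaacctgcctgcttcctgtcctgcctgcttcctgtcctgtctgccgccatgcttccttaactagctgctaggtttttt
Kcnj10: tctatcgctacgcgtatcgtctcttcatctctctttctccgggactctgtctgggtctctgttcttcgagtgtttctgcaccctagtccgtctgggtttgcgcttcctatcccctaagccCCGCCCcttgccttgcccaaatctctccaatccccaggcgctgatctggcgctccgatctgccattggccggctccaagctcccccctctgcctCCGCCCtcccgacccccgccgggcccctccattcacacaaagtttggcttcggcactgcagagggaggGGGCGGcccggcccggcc
The Ackr1 window holds 1 GATA box, read as CTTATCT at bases 25 to 31 after the start. Of 32851 promoter windows, 3.04% hold it, and none of the windows of the other 7 genes does. Ackr1 and Aim2 have 4 and 5 CpG dinucleotides in their windows, where the median window has 7. Cadm3 has 17 and Kcnj10 has 21. The GC box, held by 35.7% of all windows, occurs 1 time in Aim2, 3 times in Kcnj10, 5 times in Igsf8, 1 time in Dusp23 and in none of the others. The TATA box (13.6% of all windows) occurs in Kcnj9, and the interferon element (3.44%) in none of the 9 windows. No array value bears on what binds there.

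Cadm3 (Entrez 94332) is the next tested gene after Ackr1, and in RefSeq the 2 genes overlap on the same strand. Which bases their probe sets cover is not given in the sources used here, so signal shared between them cannot be told apart. The signals of Cadm3 were 10.06, 10.16 and 10.03 in Q20 with mGluR5 and 10.09, 10.19 and 10.03 in Q20 without it. In Q111 mice they were 9.92, 9.93 and 9.75 with mGluR5 and 9.87, 9.81 and 9.79 without it. The Q111 arrays were again all lower, by a gap of 0.10, but the average difference, -0.25 ± 0.06 (SE), was far smaller than that of Ackr1. Aim2 (Entrez 383619), the following gene on the opposite strand, read 7.64, 7.91 and 7.85 in Q20 with mGluR5 and 7.68, 7.81 and 7.68 in Q20 without it. In Q111 mice it read 7.15, 7.18 and 7.35 with mGluR5 and 7.20, 7.29 and 7.17 without it. The gap between the alleles was 0.29, and the average difference was -0.54 ± 0.07, or 1.45-fold lower in Q111 mice. Dusp23, the tested gene just before Ackr1, had Q20 arrays from 7.41 to 7.66 and Q111 arrays from 7.37 to 7.69, which overlap, and a difference of -0.02 ± 0.06. Ackr1, Cadm3 and Aim2 thus had lower signals in every Q111 array than in any Q20 array, while Dusp23 beside them did not.

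Igsf8, Kcnj9 and Kcnj10 follow each other in the gene order, 12 to 10 tested genes before Ackr1. On average Kcnj10 was higher and Igsf8 lower in Q111 mice, while Kcnj9 was near 0. Kcnj10 (Entrez 16513) read 9.86, 9.72 and 9.71 in Q20 with mGluR5 and 9.60, 9.76 and 9.71 in Q20 without it. Its values in Q111 mice were 10.03, 10.23 and 10.15 with mGluR5 and 9.98, 10.06 and 10.02 without it. All 6 Q111 arrays lay above the Q20 arrays, by a gap of 0.12, and the average difference was 0.35 ± 0.06 (SE), or 1.27-fold. Kcnj9 (Entrez 16524) showed no such order, with 7.28 to 7.80 in Q20 arrays, 7.43 to 7.90 in Q111 arrays and a difference of 0.03 ± 0.09. Igsf8 (Entrez 140559) had 8.08 to 8.28 in Q20 arrays and 7.93 to 8.15 in Q111 arrays, which overlap, and a difference of -0.16 ± 0.06. Rxrg (Entrez 20183), the gene at the far end 62 tested genes before Ackr1, had 11.26, 11.36 and 11.34 in Q20 with mGluR5 and 11.48, 11.41 and 11.45 in Q20 without it. The Q111 values were 11.19, 11.16 and 11.02 with mGluR5 and 11.17, 10.96 and 11.03 without it. They lay below all Q20 values by a gap of 0.07, with an average difference of -0.30 ± 0.06.

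Read together, the 6 Q111 arrays did not overlap the 6 Q20 arrays in 5 of the 8 genes, 4 lower and 1 higher, where this held for 1.21% of all 16721 tested genes (0.771% lower and 0.437% higher). In limma, which fits all genes at once and adjusts p-values over them by Benjamini-Hochberg, 4 of the 8 (Ackr1, Aim2, Kcnj10 and Rxrg) had an adjusted p below 0.05 for the average difference between alleles, against 1.32% of all tested genes (0.496% higher and 0.825% lower). Because this difference chose the genes, nothing is read from these counts, nor from how they change with single arrays left out. With single arrays left out, Rxrg was not past that threshold without replicate 2 or 3 of Q20 with mGluR5, any replicate of Q20 without mGluR5, replicate 1 or 3 of Q111 with mGluR5, or replicate 2 or 3 of Q111 without it.

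The allele difference was also taken separately with and without mGluR5, 2 comparisons that share no array. For Ackr1 it was -1.10 ± 0.10 (SE) with mGluR5 and -1.11 ± 0.10 without it, for Aim2 -0.57 ± 0.10 and -0.50 ± 0.10, and for Kcnj10 0.37 ± 0.09 and 0.33 ± 0.09. Cadm3 had -0.22 ± 0.09 and -0.28 ± 0.09, Rxrg -0.20 ± 0.09 and -0.39 ± 0.09, and Igsf8 -0.17 ± 0.09 and -0.15 ± 0.09. Kcnj9 differed in sign, at -0.10 ± 0.12 and 0.16 ± 0.12. With array weights, a fit that trusts some arrays more than others, it stood at -0.16 ± 0.16 and 0.37 ± 0.07. The estimation of those weights stopped before its tolerance was reached. The interaction tests whether these pairs differ. It was called for 0 of the 8 genes by limma at an adjusted p below 0.05, where 0.437% of all tested genes were called, and for 0 of 8 with an unmoderated linear model. At an unadjusted p under 0.05 it was 0 of 8, against 898 of all 16721 tested genes. The difference between the 2 allele effects was -0.01 for Ackr1 (95% confidence interval -0.32 to 0.29), 0.07 for Aim2 (-0.22 to 0.36), -0.04 for Kcnj10 (-0.31 to 0.22) and -0.20 for Rxrg (-0.46 to 0.07). For Kcnj9 it was 0.26 (-0.10 to 0.63), and 0.53 ± 0.17 (SE) with array weights (limma adjusted p = 0.309). These unadjusted intervals hold the differences that the arrays do not exclude, and they are wide with 3 arrays a group.

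**Figure D2:**
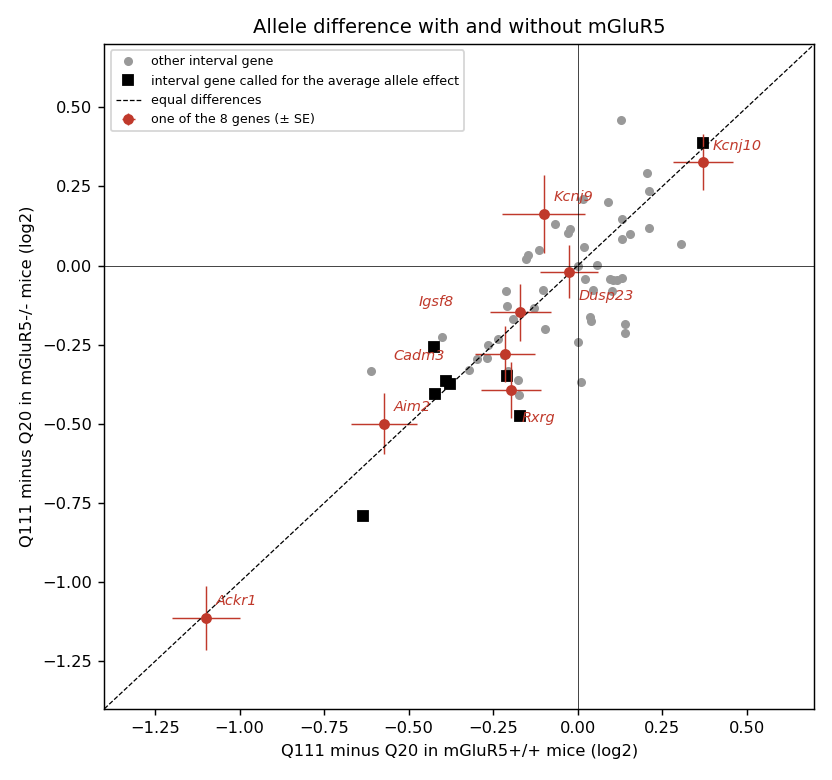
Log2 difference between Q111 and Q20 mice with mGluR5 (horizontal) and without it (vertical) for the 8 genes (± SE) and the 57 other tested genes between Rxrg and Aim2; the dashed line marks equal differences. Ackr1 stands at -1.10 and -1.11, and 37 of the 57 other genes have the same sign on both axes, against 10070 of all 16721 tested genes.

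No effect of mGluR5 loss on the 8 genes passed the test. The average effect over both alleles was called for 0 of 8 (limma, adjusted p below 0.05), where 0.293% of all tested genes were called, and for 0 with an unmoderated linear model. At an unadjusted p under 0.05 it was 1 of 8, Dusp23, against 890 of all 16721 tested genes. Its signals were 7.50, 7.45 and 7.41 in Q20 with mGluR5 against 7.59, 7.63 and 7.66 without it, and 7.37, 7.46 and 7.46 in Q111 with mGluR5 against 7.65, 7.49 and 7.69 without it. The knockout arrays were the higher ones within each allele, with a difference of 0.18 ± 0.06 (SE, limma adjusted p = 0.568). The average effect on Ackr1 was 0.03 ± 0.07 (95% confidence interval -0.12 to 0.18), and on Aim2 -0.04 ± 0.07 (-0.19 to 0.10). For Kcnj10 it was -0.09 ± 0.06, for Igsf8 -0.08 ± 0.06, for Rxrg 0.03 ± 0.06 and for Cadm3 -0.01 ± 0.06. Taken within each allele, mGluR5 loss was also called for 0 of the 8 genes, against 0.299% of all tested genes in Q20 and 0.275% in Q111 mice. At an unadjusted p under 0.05 this was 1 of 8 in Q20 mice, Kcnj9, and 0 in Q111 mice, against 1007 and 729 of all 16721 tested genes, and the unmoderated model called 0 in either. In Q20 mice Kcnj9 read 7.80, 7.77 and 7.77 with mGluR5 and 7.28, 7.68 and 7.54 without it. That difference was -0.28 ± 0.12 (limma adjusted p = 0.781). With array weights, whose estimation stopped before its tolerance was reached, it came out at -0.46 ± 0.08 and was called (limma adjusted p = 0.00176). No other setting called it.

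**Figure D3:**
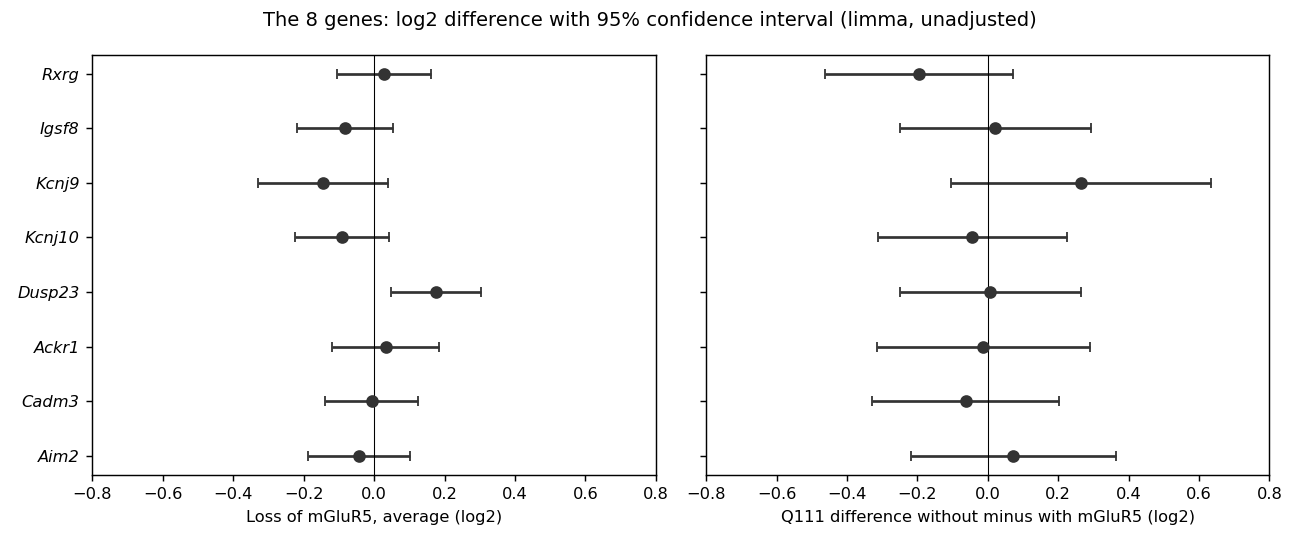
Average effect of mGluR5 loss (left) and the difference of the allele effect without minus with mGluR5 (right) for the 8 genes, as log2 differences with unadjusted 95% confidence intervals from limma. All intervals include 0 but that of Dusp23 on the left, 0.05 to 0.30, whose adjusted p was 0.568.

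The genes between Rxrg and Aim2 other than the 8 show how the rest of the region read. The region was bounded by genes picked with the allele difference known, so its allele counts are a description, not an independent test. In RefSeq gene order 57 other tested genes lie there. For the average allele difference 8 of the 57 were called (limma, adjusted p below 0.05), 1 higher and 7 lower in Q111 mice, against 1.32% of all tested genes. Their median difference was -0.06, where that of all tested genes was -0.02. Hsd17b7, an enzyme of cholesterol synthesis, fell most (-0.71 ± 0.09, SE, adjusted p = 0.000309). Atf6, a sensor of the unfolded protein response, fell by 0.41 ± 0.08 (adjusted p = 0.0139). B4galt3, a galactosyltransferase, fell by 0.38 ± 0.07 (adjusted p = 0.00884) and Dcaf8, a substrate receptor of a ubiquitin ligase, by 0.38 ± 0.07 (adjusted p = 0.0105). Ppox, an enzyme of heme synthesis (-0.34 ± 0.07), the kinase gene Uhmk1 (-0.32 ± 0.07) and Pcp4l1 (-0.28 ± 0.06) fell as well. Sdhc, a membrane subunit of respiratory complex II, rose (0.38 ± 0.07, adjusted p = 0.0183). Of all 57, 37 had the same sign in mice with and without mGluR5, against 10070 of 16721 tested genes.

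Of these 8 genes, 7 lie in the stretch from 58 (Hsd17b7) to 37 (Ppox) tested genes before Ackr1, toward the Rxrg end of the region. Dcaf8 lies 16 tested genes before Ackr1, and none of the 8 is nearer to it. The 6 Q111 arrays did not overlap the 6 Q20 arrays in 9 of the 57, against 1.21% of all tested genes: the 8 called genes and Klhdc9, whose difference of -0.25 ± 0.06 did not pass (adjusted p = 0.0811). For Hsd17b7 the Q20 arrays ran from 8.25 to 8.87 and the Q111 arrays from 7.80 to 7.96, a gap of 0.29. For Sdhc the Q20 arrays ran from 10.46 to 10.82 and the Q111 arrays from 10.91 to 11.09. Of the 40 tested genes beyond both ends, 20 on each side, 1 was called, Fmn2, a formin that nucleates actin, which fell by 0.42 ± 0.07 (adjusted p = 0.00641). Loss of mGluR5 and the interaction were each called for 0 of the 57 by limma, against 3 and 4 at an unadjusted p under 0.05 (890 and 898 of all 16721). That Hsd17b7 was lower in Q111 mice was known when the region was chosen. The count of 8 fell to 4 without replicate 2 of Q20 with mGluR5, replicate 1 of Q20 without it, replicate 1 of Q111 with it, or replicate 2 or 3 of Q111 without it, and to 5 without replicate 1 of the last group. Atf6, B4galt3, Dcaf8 and Hsd17b7 were called in all 12 such fits.

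**Figure D4:**
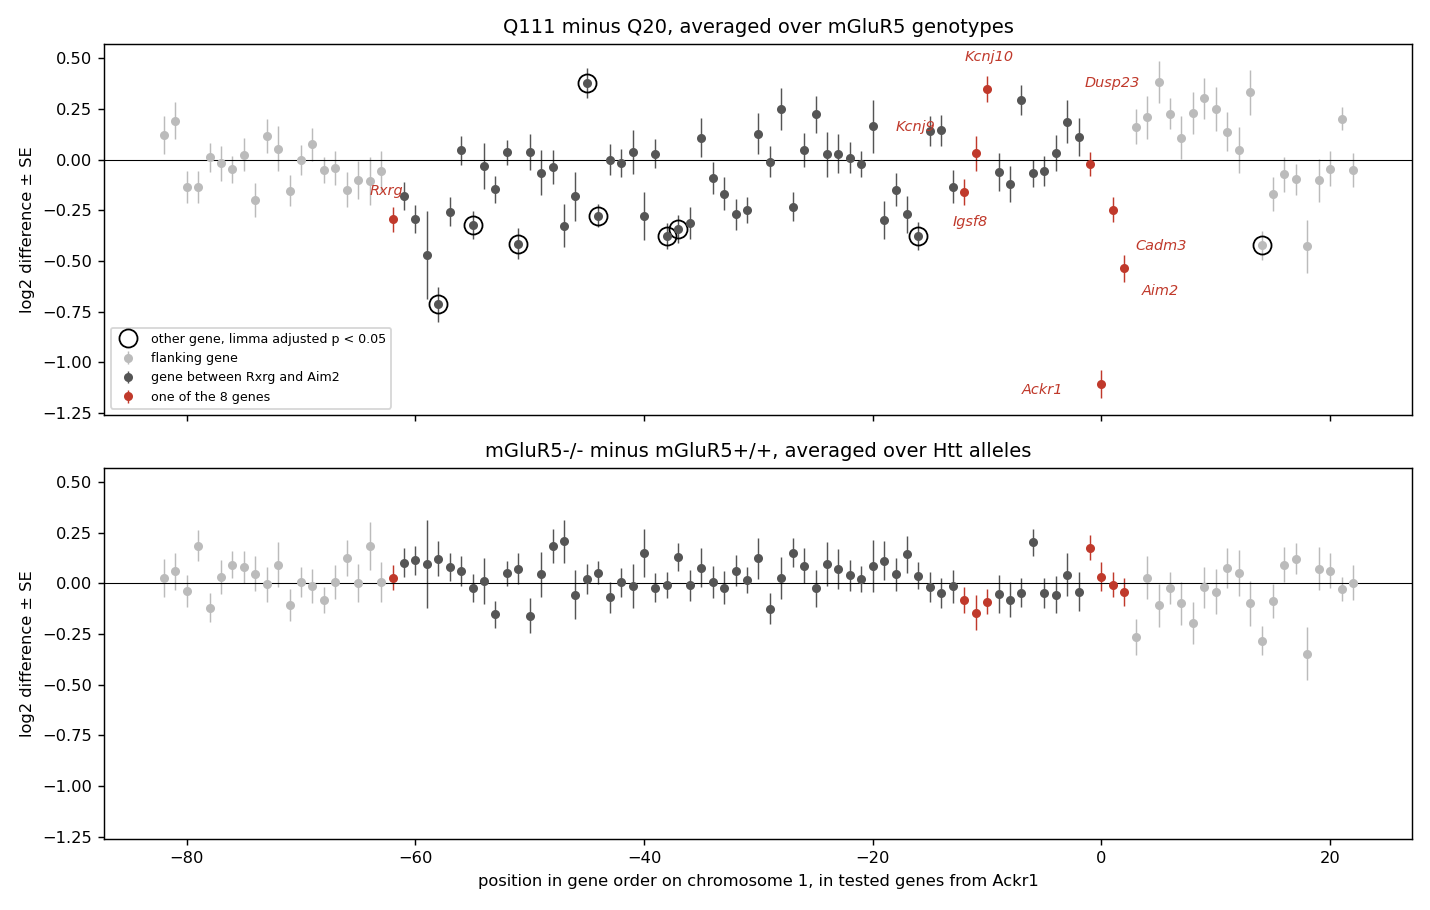
Log2 difference (± SE) of 105 tested genes in their order on chromosome 1, counted from Ackr1 at 0, for the Q111 allele (top) and for mGluR5 loss (bottom). Circles mark genes other than the 8 described (red) with a limma adjusted p below 0.05: 8 between Rxrg and Aim2 and 1 beyond in the top panel, and none in the bottom panel.

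Markers of the cells that the 8 genes are known from were read beside them. For the average allele difference in limma, 9459 of all 16721 tested genes were negative, 1907 had an unadjusted p under 0.05 and 1.32% were called. In bulk tissue fewer cells of a type and less RNA per cell cannot be told apart. With Ackr1, 7 of 8 measured endothelial markers were lower in Q111 mice and 0 of 8 passed (limma, adjusted p below 0.05; 5 at an unadjusted p under 0.05). Their median difference was -0.23, with Flt1 at -0.29 ± 0.07 (SE) and Pecam1 at -0.26 ± 0.07. The mean log2 level of the list ran from 7.47 to 7.75 in Q20 with mGluR5 and from 7.66 to 7.71 in Q20 without it. It ran from 7.25 to 7.64 in Q111 with mGluR5 and from 7.42 to 7.64 in Q111 without it. The venular marker Selp was not among the tested genes, and the part of endothelial cells in the result was not tested. Of 6 blood markers 2 were tested, Alas2 (-0.17 ± 0.07) and Slc4a1 (0.00 ± 0.10), and neither passed.

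With Kcnj10, which was higher, the 10 astrocyte markers had a median of -0.04 and 6 of 10 were negative, against 9459 of all 16721 tested genes. Of these markers 0 passed, and 2 had an unadjusted p under 0.05, against 1907 of all 16721. Sox9 stood at -0.16 ± 0.06 (SE) and Slc1a3 at -0.17 ± 0.07. Their mean level spanned 9.80 to 9.94 over the 6 Q20 arrays and 9.74 to 9.92 over the 6 Q111 arrays, which overlap. With Aim2, 6 of 9 microglia markers were negative, 0 passed and the median was -0.03, with C1qb at -0.24 ± 0.07 and Csf1r at -0.25 ± 0.08. Their mean level spanned 8.36 to 8.64 in Q20 and 8.35 to 8.45 in Q111 arrays, and the part of microglia was not tested. With Rxrg, 2 of 8 projection neuron markers were negative, 0 passed and the median was 0.01. The list mean spanned 11.73 to 11.82 in Q20 and 11.70 to 11.84 in Q111 arrays.

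Relatives and partners of the 8 genes were read too, some of them on distal chromosome 1, such as Nectin4 within the region. They held no called gene for the average allele difference. This was 0 of 10 tested atypical chemokine receptors and Ackr1 ligands, of which 1 was negative (median 0.09), against 9459 of all 16721 tested genes. Among them Ccl17 stood at 0.25 ± 0.08 (SE) and Ccl5 at 0.19 ± 0.07. It was 0 of 7 inflammasome genes, of which 3 were negative (median 0.01), with the pore protein Gsdmd at -0.28 ± 0.10 and the cytokines Il18 at -0.21 ± 0.07 and Il1b at 0.15 ± 0.07. Of 16 names of the HIN-200 family, to which Aim2 belongs, 1 was tested, Ifi214, the next tested gene after Aim2 (0.16 ± 0.09). The 5 other retinoid receptors had a median of -0.10, with Rara at -0.17 ± 0.08. The 12 other inward rectifier channels had a median of -0.07, with Kcnj11 at -0.25 ± 0.11 and Kcnj14 at 0.28 ± 0.13. Medians were 0.03 for 6 nectin-like adhesion genes, 0.02 for 5 EWI proteins and tetraspanins, with Cd82 at 0.28 ± 0.08, and 0.04 for 11 atypical dual-specificity phosphatases, with Dusp15 at 0.21 ± 0.08. At an unadjusted p under 0.05 the 8 lists held 2, 3, 0, 1, 2, 0, 1 and 3 genes in this order. With the 7 marker lists this was 24 of 100 genes, against 1907 of all 16721 tested genes. Loss of mGluR5 and the interaction were called for 0 genes of these 8 lists and of the 7 marker lists (limma). At an unadjusted p under 0.05 they held 7 and 9 of the 100 genes, against 890 and 898 of all 16721.

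The genes whose pattern over the 12 arrays was most like that of Ackr1 lie on other chromosomes. By Pearson correlation, given as a description, they were Ccl19 on chromosome 4 (0.988), Cdhr1 on chromosome 14 (0.986), Invs on chromosome 4 (0.975), Gm5148 on chromosome 3 (0.972) and Rpl26 on chromosome 11 (0.972). In all 5 the 6 Q111 arrays lay below the 6 Q20 arrays, with gaps from 0.62 in Gm5148 to 1.77 in Ccl19. Since the arrays form 2 separate sets in these genes, the coefficient mainly restates that gap. Among the other 7 genes described here, Aim2 came nearest (0.934, rank 16 of all tested genes), before Cadm3 (0.895, rank 43) and Rxrg (0.846, rank 80). Kcnj10 ran opposite (-0.880).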

How the data were processed

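Total RNA of striatum was hybridised to 12 one-colour Affymetrix whole-transcript arrays. The deposited values are log2 signals made by the authors with RMA, per the submitters' processing notes, which name RMA and Partek. The series description names Partek Genomics Suite 6.5. Of 35556 probe sets, 21789 had 1 platform gene symbol, 1621 several and 12146 none. Symbols were updated by Entrez number to RefSeq (GRCm38.p6), and 91 sets had no match. Each gene was represented by its probe set of highest mean, and the 16721 genes above the 25th percentile in at least 3 arrays were tested. limma 3.58.1 in R 4.3.3 fitted 1 mean per group over all 12 arrays (8 residual degrees of freedom, prior 6.88), with two-sided tests, Benjamini-Hochberg adjustment over all tested genes and a threshold of 0.05. The fit was also run on simulated data, drawn independently for each gene and array. Such data lack the likeness among same-numbered arrays and do not test its effect. Gene order came from RefSeq. Members, lists and alternatives were chosen with earlier results of these data known. Named are the 8 genes, Grm5, Htt, called genes of the region and its flanks, genes of each list with the smallest p, and the 5 genes most like Ackr1. Plots used matplotlib 3.10.9 in Python 3.11.15.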

Additional observations from a re-analysis of the deposited data

How the results depend on the processing

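The allele difference of Ackr1 lay between -1.16 and -1.07 over the settings tried and between -1.14 and -1.06 with single arrays left out. The direction of the average allele difference was kept in all 23 alternatives by Ackr1, Aim2, Kcnj10, Cadm3, Rxrg and Igsf8, and in 21 of 23 by Kcnj9 and Dusp23, whose differences were near 0. Counts of the 8 genes called for mGluR5 loss on average and for the interaction, and of the 57 region genes called for mGluR5 loss, were 0 in every alternative. The count of 8 region genes called for the allele was 4 with an unmoderated linear model and 1, Hsd17b7, by the authors' criteria (p below 0.05 unadjusted and at least 1.5-fold). It was 15 with each array's interquartile range as a covariate and 14 with array weights, whose estimation stopped before its tolerance was reached. It was 4 to 12 with single arrays left out. Over all genes the count was 221, against 123 and 51 with the first 2 of these settings, 488 and 391 with the next 2, and 119 to 511 with single arrays left out. With the replicate number as a block the region count was 15, Klhdc9 included, that over all genes was 487, and Cadm3 was past the threshold. Replicate 2 had the widest interquartile range in each group, so the block and the interquartile range covariate are not independent settings. The numbers were to be taken as pairs only if every same-numbered pair deviated together (correlation over 0.1), which 11 of 18 pairs did. As a hint from the data, not the design, 9 of 12 arrays were closest to one of their own number. The replicate 2 pairs correlated at 0.34 to 0.57, those of replicate 1 at -0.04 to 0.22 and those of replicate 3 at -0.14 to 0.46. Arrays of different groups and different numbers ran from -0.56 to 0.45. Of 1265 other values of the 8 genes, 1262 stayed on their side of the threshold or within 1 SD. The 3 others all came with array weights: mGluR5 loss for Rxrg in Q111 mice moved to 0.02, and 2 differences of Kcnj9 passed the threshold, mGluR5 loss in Q20 mice (-0.46) and the allele difference without mGluR5 (0.37). Given as a description, Rxrg was past the threshold for the average allele difference in 13 of 23 alternatives and Cadm3 in 7 of 23.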

Other observations

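On the rest of chromosome 1, of 854 tested genes outside the region and its flanks, 12 were called for the average allele difference (limma, adjusted p below 0.05), 5 higher and 7 lower in Q111 mice, which is 1.41% against 1.32% of all tested genes. The names that follow were chosen after their values were seen. Catspere2, a sperm calcium channel subunit, rose most (0.83 ± 0.12, SE). Its difference was 0.38 ± 0.17 with mGluR5 and 1.28 ± 0.17 without it, and the gap between the alleles was only 0.005. The interaction was not called for it (limma adjusted p = 0.218). Chil1, a chitinase-like protein known from reactive glia, rose too (0.67 ± 0.13). Fn1, the matrix protein fibronectin, fell by 0.40 ± 0.08 and Prex2, an activator of Rac, by 0.34 ± 0.08. Pla2g4a, a cytosolic phospholipase, rose (0.39 ± 0.08). In 5 of these 854 genes the 6 Q111 arrays did not overlap the 6 Q20 arrays, against 1.21% of all tested genes. Over whole chromosomes, 25 of 959 tested genes (2.61%) were called on chromosome 1, the 8 genes included, against 33 of 941 (3.51%) on chromosome 9 and 17 of 588 (2.89%) on chromosome 14, the 2 chromosomes with higher shares.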
